A study of Mus musculus with 4 samples.

Results

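Elastic fiber and microfibril genes were examined in sorted MC38 tumor cells as a list of 10 genes, out of 53379 gene identifiers counted. The list is made of the fibrillin genes Fbn1 and Fbn2, the microfibril-associated genes Mfap2, Mfap4 and Mfap5, the elastin gene Eln, the fibulin-type genes Efemp1, Efemp2 and Fbln5, and Emilin1. All 10 were found by symbol, and 7 of them had enough reads to enter the fit across 13792 genes. The list was chosen by function and by the measured responder against non-responder CPM of these libraries, in which Emilin1 and Mfap4 stood out, so the differences between groups given for its members are descriptions and carry no test.

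MC38, a colon adenocarcinoma line of the mouse, carried GFP here. Subcutaneous tumors were grown in C57BL/6 mice from 50000 cells, and every mouse, in both groups, was given a low course of the anti-PD-1 antibody, which blocks an inhibitory receptor of T cells, at 100 µg on day 12 and again on days 15, 18 and 22. Cancer cells were sorted from tumors labelled responder (2 libraries) or non-responder (2 libraries), and their polyadenylated RNA was sequenced. No untreated group is among these samples. The labels used here do not state the age of the mice or the scoring of response. They also do not state whether each library is from another mouse, so the spread between libraries may be technical. The comparison asks how the cancer cells of tumors with these labels differ.

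Elastic fibers are the part of the extracellular matrix that lets tissues stretch and recoil. Fibrillins assemble into microfibrils, and on that scaffold tropoelastin, the product of Eln, is deposited with the help of fibulins and cross-linked by lysyl oxidases. Microfibrils also hold latent TGF-beta through its binding proteins, and EMILIN-1, found where elastin meets the microfibril, limits the processing of the TGF-beta precursor. Connective tissue cells such as fibroblasts and smooth muscle cells are the usual source of these proteins.

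Library totals were 18447041 to 21754063 counts. Levels are CPM (gene counts over the library total, on a common scale), adjusted between libraries by TMM factors of 0.952 to 1.036. The epithelial markers were at or near 0: 8 of 9 stayed under 1 CPM in all 4 libraries, Epcam and the keratin gene Krt8 among them, so these defining markers of the labelled adenocarcinoma were absent or nearly so, and the exception was Cdh1 at 0.43 to 2.47 CPM. Krt18 was the next highest, at up to 0.64 CPM. Of 10 endothelial markers 7 stayed under 1 CPM throughout. Of 12 smooth muscle and pericyte markers 9 did, the smooth muscle genes Myh11, Tagln and Cnn1 among them. The summed level of the fibroblast markers was high in every library, at 16383 and 20777 CPM in the non-responder and 13391 and 11313 CPM in the responder libraries. Col3a1 was the largest part, at 7597 and 13392 against 6897 and 5792 CPM. Single markers varied widely: Fap had 10.0 and 13.7 against 4.66 and 5.29 CPM, and Thy1 stayed under 1 CPM.

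The elastic fiber transcripts of these cells were mostly those of microfibrils and fibulin-4, with little elastin. Per kilobase of exon, which allows genes to be compared, Fbn1, the main fibrillin of adult tissue, stood at 171 and 251 CPM per kb in non-responder and 262 and 145 CPM per kb in responder replicates 1 and 2. It made up 60.8% to 74.9% of the summed per-kb level of the 10 genes in each library. Efemp2, which encodes fibulin-4, a protein that brings lysyl oxidase to tropoelastin, came next at 62.5 and 90.0 CPM per kb against 72.4 and 74.5 CPM per kb, or 20.7% to 32.5% of the sum. Eln itself had 0.35 and 0.39 CPM per kb in non-responder and 0.17 and 0.19 CPM per kb in responder libraries. On the same per-kb scale Fbn1 was 496 to 1583 times the level of Eln, and 239 to 763 times when each gene's length was that of its longest protein-coding transcript, a choice added after seeing the data. By mean level per kb the order was Fbn1, Efemp2, Mfap4, Emilin1, Fbln5, Eln, Mfap5, Mfap2, Efemp1 and Fbn2. In 5 of the 9 neighbouring pairs the order held in all 4 libraries. The neighbours that changed places between libraries were Mfap4 with Emilin1, Eln with Mfap5, Mfap5 with Mfap2, and Mfap2 with Efemp1.

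**Figure D1:**
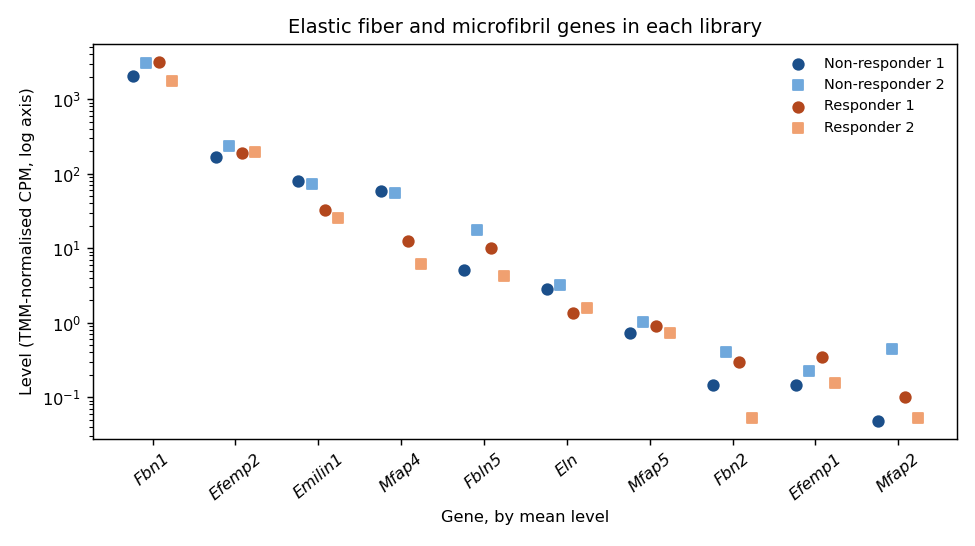
TMM-normalised CPM of the 10 genes (log axis) in each of the 4 libraries, with 1 point per library and genes ordered by mean CPM. Emilin1, Mfap4 and Eln have both responder points under both non-responder points, and the points of the other 7 genes overlap between groups.

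In the fibrillin and fibulin families an abundant gene stood beside a nearly silent relative, and both genes of the small glycoproteins MAGP-1 and MAGP-2 were low. Fbn2, the fibrillin best known from embryonic tissue, had 3 and 9 reads in the non-responder and 6 and 1 reads in responder replicates 1 and 2, against 33672 to 67998 reads for Fbn1. Efemp1, which encodes fibulin-3, had 3, 5, 7 and 3 reads in the same order of libraries, against 3425 to 5315 reads for Efemp2. Mfap2, which encodes MAGP-1, had 1, 10, 2 and 1 reads, and Mfap5, which encodes MAGP-2, had 15, 23, 18 and 14. Fbn2, Efemp1 and Mfap2 were too low for the fit, and at these counts no difference between groups was detectable in them.

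The RefSeq table of promoters (GRCm38.p6, the build of the counts, 250 bases before to 50 after an annotated start) held 10 windows for 6 of the genes: Emilin1, Fbn1, Efemp1, Efemp2, Fbln5 and Mfap2. Eln, Mfap4, Mfap5 and Fbn2 had no entry. The windows of 4 genes are printed: Emilin1, which differed between groups, Fbn1, the most abundant, and the relatives Efemp2 and Efemp1, an expressed and a nearly silent gene. They lie at chr5:30913536-30913835 (plus strand), chr2:125506389-125506688 (minus), chr19:5473696-5473995 (plus, the first of 3 windows of Efemp2) and chr11:28852955-28853254 (plus). Each reads 5′ to 3′ in the direction of the gene. Capitals mark matches, on either strand, to 6 motifs, none of which contains another: the SMAD core motif spelled CAGAC, the longer SMAD palindrome GTCTAGAC, the AP-1 motif written as TGANTCA, the TEAD motif with the letters GGAATG, the SP/KLF motif, which reads GGGCGG, and the TATA box, searched as TATAAA.
Emilin1: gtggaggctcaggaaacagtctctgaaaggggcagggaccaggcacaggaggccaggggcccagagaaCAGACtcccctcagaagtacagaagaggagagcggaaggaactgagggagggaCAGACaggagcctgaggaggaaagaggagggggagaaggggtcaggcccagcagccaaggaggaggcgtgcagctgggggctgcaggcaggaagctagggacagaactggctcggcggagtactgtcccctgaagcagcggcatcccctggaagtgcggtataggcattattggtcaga
Fbn1: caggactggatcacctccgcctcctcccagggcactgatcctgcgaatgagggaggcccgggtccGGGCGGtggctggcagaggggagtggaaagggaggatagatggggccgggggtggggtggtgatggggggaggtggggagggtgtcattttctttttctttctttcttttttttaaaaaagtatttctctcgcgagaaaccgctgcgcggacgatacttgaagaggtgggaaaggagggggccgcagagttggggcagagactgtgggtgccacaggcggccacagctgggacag
Efemp2: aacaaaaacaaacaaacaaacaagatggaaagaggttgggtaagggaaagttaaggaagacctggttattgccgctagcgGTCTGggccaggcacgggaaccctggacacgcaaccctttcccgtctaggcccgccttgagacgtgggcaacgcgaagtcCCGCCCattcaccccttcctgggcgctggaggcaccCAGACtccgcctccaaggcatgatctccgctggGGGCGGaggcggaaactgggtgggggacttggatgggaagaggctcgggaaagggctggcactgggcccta
Efemp1: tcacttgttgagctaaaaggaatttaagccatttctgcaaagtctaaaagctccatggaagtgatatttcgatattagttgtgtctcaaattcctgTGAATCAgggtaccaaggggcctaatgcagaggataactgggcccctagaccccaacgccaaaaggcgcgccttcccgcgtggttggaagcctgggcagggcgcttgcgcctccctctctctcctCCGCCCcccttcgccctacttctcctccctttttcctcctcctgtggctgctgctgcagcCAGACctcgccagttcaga

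In these windows Emilin1 held 2 matches to the SMAD core and none to the other motifs, and Fbn1 held 1 match to the SP/KLF motif alone. The Efemp2 window held 2 matches each to the SMAD core and the SP/KLF motif, and the Efemp1 window 1 each to these and to the AP-1 motif. Over the 10 windows of the 6 genes, the SMAD core was found in 6 windows, the SP/KLF motif in 7, the AP-1 and TEAD motifs in 1 each, and the SMAD palindrome and TATA box in none. The windows are not separate units, as the later windows of Efemp2 overlap each other and share matches. By gene, 5 of the 6 held the SMAD core and 5 the SP/KLF motif in any of their windows. A gene with several windows has more chances of a match, so these counts cannot be set against shares per window. Shares by gene over the whole table were not computed. Of all 32851 windows in the table, 49.6% held the SMAD core, 35.7% the SP/KLF motif, 7.81% the AP-1 motif, 14.7% the TEAD motif, 0.213% the SMAD palindrome and 13.6% the TATA box. CpG sites numbered 6 in the Emilin1 window, 14 in that of Fbn1, 16 in that of Efemp2 and 11 in that of Efemp1, with a median of 7 over all windows. Among the printed windows, that of Emilin1, with over 25 CPM in every library, had fewer CpG sites than that of the near-silent Efemp1. The other windows of Efemp2 held 35 and 41 CpG sites, those of Mfap2 6 and 22, and those of Fbln5 8 and 24. Whether CpG number goes with level was not tested.

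Mfap4 differed most between the groups. It encodes a fibrinogen-related glycoprotein that binds fibrillin and tropoelastin. Mfap4 (ENSMUSG00000042436, chr11:61485431-61488900, mm10, plus strand) had 59.2 and 55.6 CPM in the non-responder and 12.5 and 6.13 CPM in the responder libraries, replicate 1 first. The non-responder libraries were alike and the groups did not overlap, while the responder libraries differed 2.04-fold from each other. The log2 fold change was -2.62 (SE 0.33), or 6.15-fold lower in responder libraries, with group means of 57.4 ± 2.58 and 9.31 ± 4.50 CPM (SD, n = 2). It was -3.23 and -2.20 when responder replicate 1 or 2 was left out. In these bulk libraries fewer cells that transcribe a gene and less RNA per cell cannot be told apart. The gene shares its locus with Mapk7 on the other strand, and counting was strand-specific. Mapk7 had 35.0 and 44.2 CPM in the non-responder and 42.2 and 43.5 CPM in the responder libraries, a range in which the groups overlap.

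Emilin1 (ENSMUSG00000029163, chr5:30913402-30921277, plus strand) had 79.2 and 72.0 CPM in the non-responder and 33.1 and 25.4 CPM in the responder libraries. Here too the groups did not overlap, and the spread within each, 1.10-fold and 1.30-fold, was small beside the gap. The log2 fold change was -1.37 (SE 0.19), or 2.59-fold lower, with group means of 75.6 ± 5.04 and 29.2 ± 5.42 CPM (SD, n = 2). Leaving out 1 library at a time gave -1.58 to -1.19. Of its neighbours on the chromosome, Khk, 0.154 kb to the right, had a log2 fold change of 0.30 and Ost4, 5.61 kb to the left, of -0.23.

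Because Mfap4 was lower by more than Emilin1, their order per kilobase differed between groups. Mfap4 had 1.92 and 1.98 times the CPM per kb of Emilin1 in the non-responder libraries, and 0.970 and 0.620 times in the responder libraries. Mfap4 made up 10.9% and 7.44% of the summed per-kb level of the 10 genes in non-responder libraries and 1.86% and 1.39% in responder libraries. For Emilin1 the shares were 5.68% and 3.75% against 1.92% and 2.24%.

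**Figure D2:**
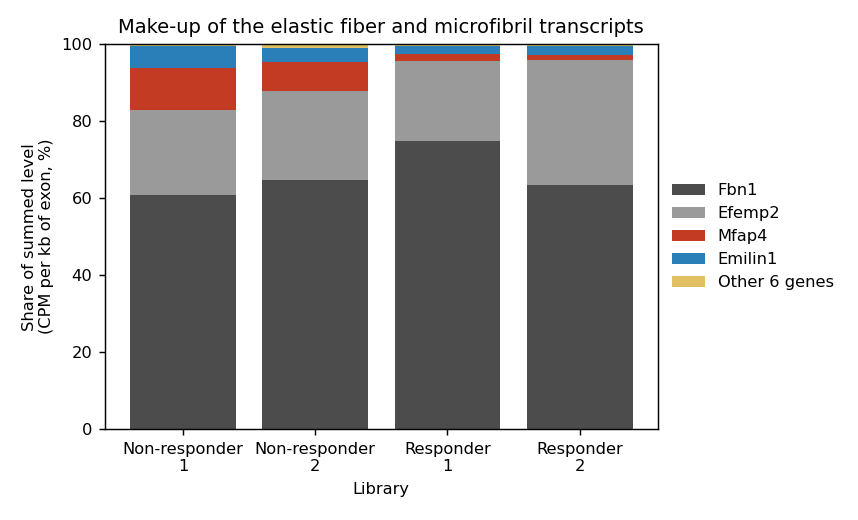
Share of each gene in the summed level of the 10 genes, in CPM per kb of exon (%), with 1 bar per library. Fbn1 and Efemp2 fill 82.9% to 95.9% of each bar, and the Mfap4 segment is 10.9% and 7.44% in the non-responder bars and 1.86% and 1.39% in the responder bars.

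Eln was low everywhere and lower still in responder libraries. It had 2.80 and 3.18 CPM (58 and 71 reads) in the non-responder and 1.34 and 1.57 CPM (27 and 30 reads) in the responder libraries, and the groups did not overlap. The log2 fold change was -1.04 (SE 0.39), or 2.05-fold lower, and leaving out single libraries gave -1.16 to -0.93. Eln (ENSMUSG00000029675) lies at chr5:134702593-134747323 on the minus strand.

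The scaffold and the fibulins showed no such gap. Fbn1 (ENSMUSG00000027204, chr2:125300594-125507993, minus strand) had 2080 and 3050 CPM in the non-responder and 3173 and 1763 CPM in the responder libraries. The highest and the lowest library were both responders. Its log2 fold change of -0.06 (SE 0.34) turned over 0 when either group lost its replicate 2, to 0.24 for the non-responder and 0.31 for the responder one. Efemp2 (ENSMUSG00000024909, chr19:5473973-5481853, plus strand) had 165 and 238 CPM in the non-responder and 192 and 197 CPM in the responder libraries, with the responder values between the non-responder ones. Its log2 fold change was -0.05 (SE 0.22), and 0.23 without non-responder replicate 2. For Fbln5, whose product (fibulin-5) ties elastin to microfibrils and to integrins on the cell surface (ENSMUSG00000021186, chr12:101746565-101819055, minus strand), the values were 5.12 and 17.7 CPM against 9.96 and 4.24 CPM. The 3.46-fold gap between its non-responder libraries exceeded the 1.61-fold difference between groups. Its log2 fold change of -0.68 (SE 0.76) was 0.47 when non-responder replicate 2 was left out, -1.31 when the other non-responder was, and -1.43 and -0.19 when responder replicate 1 or 2 was. Mfap5 had a log2 fold change of -0.11 (SE 0.49) on 70 reads in all, and its sign turned without non-responder replicate 2 (0.16) or responder replicate 2 (0.02).

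**Figure D3:**
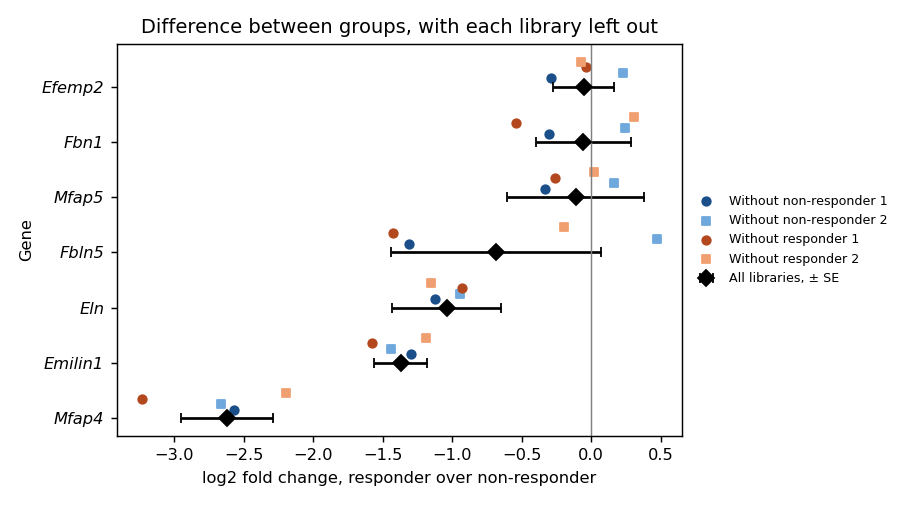
Log2 fold change, responder over non-responder, of the 7 genes in the fit (diamonds, with the standard error as bars) and with each library left out (coloured points). For Mfap4, Emilin1 and Eln every point lies under 0, from -3.23 to -0.93, while Fbn1, Fbln5, Efemp2 and Mfap5 have points on both sides of 0. As the groups did not overlap for Mfap4, Emilin1 and Eln, leaving out a library could hardly turn their signs.

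Over the 7 genes in the fit the median log2 fold change was -0.68, beside -0.01 over all genes tested, and all 7 values were under 0, as were 51.1% of all genes tested. That median is the value of Fbln5 and moved with single libraries, from -1.12 without non-responder replicate 1 to 0.16 without non-responder replicate 2, where 3 of the 7 values were under 0. Without responder replicate 2 the median was -0.19, with 5 of 7 under 0. With no filter on low counts 9 of the 10 genes were under 0, beside 47.9% of all genes in that setting. The genes it adds, Mfap2, Fbn2 and Efemp1, had 14, 19 and 18 reads in all, too few for a difference to be detectable. Groups did not overlap for 3 of the 7 genes, each lower in responder libraries, where 17.8% of all genes tested were lower without overlap. These counts come from the contrast in which the list was drawn up.

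Most genes whose groups overlapped shared another ordering of the libraries, noticed in the values and then counted. For Fbn1, Fbln5 and Mfap5, and at few reads for Mfap2, Fbn2 and Efemp1, the highest 2 libraries were non-responder replicate 2 and responder replicate 1. Efemp2 was the exception, with non-responder replicate 2 and responder replicate 2 highest. The ordering was found in 3 of the 7 genes in the fit and in 11.0% of all genes tested. Of the lysyl oxidase genes, Lox, Loxl1 and Loxl4 shared it, and Loxl2 and Loxl3 did not. Loxl1, whose product acts on elastin, had 5.94 and 32.2 CPM in the non-responder and 21.4 and 9.37 CPM in the responder libraries. Replicate numbers carry no meaning across groups in the labels, and no variable in the labels joins these libraries.

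By pattern over the 4 libraries, the genes most like Emilin1 were Pdgfrb, a growth factor receptor of mesenchymal cells, and Fkbp14, a prolyl isomerase of the endoplasmic reticulum. They were followed by the protocadherin genes Pcdhb16 and Pcdhb20 and the collagen gene Col1a1. Likeness was the largest gap between 2 genes in any library on log2 (CPM + 0.5), each gene centred on its own mean, and was 0.12 for Pdgfrb, 0.13 for Fkbp14 and 0.19 for Col1a1, among 9731 genes with a mean of at least 5 CPM. Pdgfrb had 220 and 198 CPM in the non-responder and 107 and 78.3 CPM in the responder libraries. Col1a1 had 240 and 278 against 112 and 92.8 CPM. By this measure Mfap4 had no such close companion. Its nearest were Cilp, Olfml3, Postn, Arhgef6 and Bgn, with largest gaps of 0.59 to 0.84. The gap is not scaled to the size of a gene's differences, which were larger for Mfap4 than for Emilin1. Larger gaps can follow from that alone.

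The other genes of the pathway were taken from 8 lists of 73 genes, 58 of them in the fit. By the quasi-likelihood test of edgeR, with Benjamini-Hochberg adjustment over all 13792 genes, 0 of the 58 passed an adjusted p of 0.05, as did 0% of all genes, and the smallest adjusted p in these lists was 0.631. At an unadjusted p under 0.05, 11 were lower and 2 higher, beside 3.63% lower and 2.57% higher over all genes. Over all genes limma-voom also called 0 (875 at an unadjusted p under 0.05), and DESeq2 called 64, 0.45% of those it tested. By direction alone, 38 of the 58 had values under 0 and 20 over 0, at a median log2 fold change of -0.19. Of all genes tested, 51.1% were under 0. The 8 lists were also chosen with earlier results of these data known, so their counts are descriptions.

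The 5 lysyl oxidase genes and the copper transporter gene Atp7a, which make up the cross-linking list, went both ways, 3 lower and 3 higher of 6. Lox, the highest of them per length, had 79.6 and 93.9 CPM in the non-responder and 285 and 35.2 CPM in the responder libraries, so that the responder libraries stood on either side of both others. Its log2 fold change of 0.88 (SE 1.14) was -1.30 without responder replicate 1. Loxl3, the member of smallest p, had 32.6 and 40.7 against 22.7 and 22.3 CPM (log2 fold change -0.71, SE 0.19, edgeR adjusted p = 0.631).

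Relatives of the members by family gave 4 genes in the fit of 9, 2 lower and 2 higher, while 2 (Emilin3 and Mmrn1) had no read in any library. Emilin2, a relative of Emilin1, had 31 and 49 reads in the non-responder and 3 and 14 reads in the responder libraries (log2 fold change -2.07, SE 0.69, edgeR adjusted p = 0.728). Fbln2 had 186 and 77.4 against 294 and 74.1 CPM, and differed more within than between groups. Of 4 genes that share the microfibril name alone 3 were lower, at a median log2 fold change of -0.05. Mfap3, a membrane protein gene, had 111 and 107 against 101 and 90.9 CPM (log2 fold change -0.18, SE 0.17), a small gap without overlap.

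Among the latent TGF-beta binding proteins, the ligands and their proteases, 6 of 9 were lower and 3 higher, at a median of -0.45. Tgfb3, a TGF-beta ligand gene, was both the highest per length and the one of smallest p. It had 509 and 258 CPM in the non-responder and 177 and 134 CPM in the responder libraries (log2 fold change -1.30, SE 0.34, edgeR adjusted p = 0.631), and the log2 fold change was -0.72 without non-responder replicate 1. The genes of the binding proteins were picked after their values were seen. Ltbp1 had 121 and 187 against 135 and 90.0 CPM, and Ltbp2 1.40 and 2.33 against 2.23 and 1.31 CPM. Ltbp3 had 148 and 161 against 108 and 110 CPM, and Ltbp4 262 and 364 against 301 and 365 CPM. Furin, the protease that cuts the TGF-beta precursor, had 112 and 148 against 138 and 143 CPM. Of 5 ADAMTS and ADAMTS-like genes 2 were lower and 3 higher. Adamtsl4, which encodes a fibrillin-binding protein, had 55.5 and 92.7 against 112 and 93.0 CPM, and Adamts6 had 13.0 and 27.6 against 12.1 and 12.2 CPM (log2 fold change -0.74, SE 0.35, and -0.10 without non-responder replicate 2).

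Of 7 matrix partners 5 were lower, at a median of -0.48. Fibronectin (Fn1), on which fibrillin is assembled, was by far the highest per length of all pathway genes, at 14966 and 13121 CPM in the non-responder and 11276 and 7076 CPM in the responder libraries (log2 fold change -0.61, SE 0.32, edgeR adjusted p = 0.815). Vtn, the vitronectin gene, had 1.93 and 0.63 against 0.10 and 0.26 CPM. Proteases and inhibitors were lower in 8 of 12. Mmp2, a gelatinase, had 497 and 605 against 336 and 317 CPM (log2 fold change -0.75, SE 0.20, edgeR adjusted p = 0.631), and Ctsl, the cathepsin L gene, had 1563 and 1664 against 1545 and 1775 CPM. Receptors were lower in 9 of 11, at a median of -0.31. Itgb1, the shared beta chain of many matrix integrins, had 1697 and 1228 against 1399 and 1082 CPM, and Itgb8, whose product helps to release TGF-beta, had 74.5 and 73.9 against 58.3 and 47.8 CPM (log2 fold change -0.48, SE 0.17, edgeR adjusted p = 0.746). Itga4 and Itga9, each encoding the alpha chain of an integrin that binds EMILIN-1, were scarce. Itga4 had 1.69 and 4.44 against 0.15 and 1.83 CPM, and Itga9 1.01 and 2.56 CPM against no read and 0.73 CPM.

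**Figure D4:**
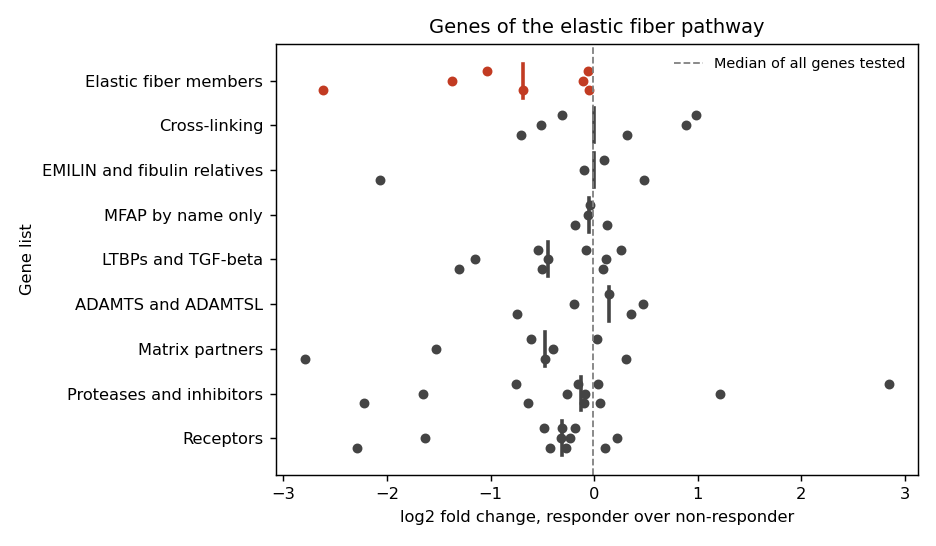
Log2 fold change, responder over non-responder, of each gene in the fit (points) and the median of each list (vertical bars), for the 7 elastic fiber and microfibril genes in red and the 8 related lists in grey. The dashed line is the median of all genes tested, -0.01, and list medians run from -0.68 for the red genes to 0.14 for the ADAMTS genes.

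Most markers of fibroblasts and of leukocytes had lower means in the responder libraries, though none passed the test over all genes. Of 15 fibroblast markers in the fit 11 had values under 0 (median log2 fold change -0.71), and 10 of these had groups that did not overlap, beside 17.8% of all genes tested. Another 2, Pdpn and Twist2, were higher without overlap, as were 18.75% of all genes tested. Pdpn had 236 and 233 against 252 and 258 CPM, and Twist2 19.0 and 24.6 against 27.6 and 32.2 CPM. The smallest edgeR adjusted p of the 15 was 0.221, and 8 were lower at an unadjusted p under 0.05, beside 3.63% of all genes. The marker lists were chosen with earlier results of these data known, so these counts are descriptions. Pdgfrb, Col1a1 and Postn, on the fibroblast list, were also among the genes most like Emilin1 or Mfap4. Their highest members were Col3a1, at 7597 and 13392 against 6897 and 5792 CPM, and Col6a3, at 2475 and 2052 against 2528 and 2176 CPM. All 16 listed fibroblast markers had reads, and Thy1 was the only one under 1 CPM throughout. All 10 leukocyte and all 10 macrophage markers had log2 fold changes under 0, beside 51.1% of all genes tested. Groups did not overlap for 4 leukocyte and 2 macrophage markers, where 17.8% of all genes tested were lower without overlap. By edgeR, 1 leukocyte and 0 macrophage markers had an unadjusted p under 0.05, where 3.63% of all genes were lower at that threshold. The smallest edgeR adjusted p was 0.758 for leukocyte and 0.831 for macrophage markers. Leukocyte markers, led by Itgb2 and Arhgdib, summed to 58.7 and 143 CPM in the non-responder libraries against 22.4 and 58.0 CPM. In responder replicate 1 Itgb2 had 10.6 and Arhgdib 9.47 of the 22.4 CPM, and each other leukocyte marker was under 1 CPM. Macrophage markers, led by Lyz2 and C1qb, summed to 82.9 and 229 against 13.3 and 81.8 CPM, so that non-responder replicate 1 and responder replicate 2 were nearly level in both sums. Endothelial markers summed to 26.3 and 29.8 against 14.9 and 18.3 CPM, with Pecam1 and Cdh5 the highest. Smooth muscle and pericyte markers summed to 68.8 and 116 against 108 and 135 CPM, most of it from Cspg4, and Acta2 had 0.63 and 3.41 against 1.69 and 1.26 CPM. Of 9 keratinocyte, muscle and fat markers 6 stayed under 1 CPM, and Krt10 and Krt14 were the highest. Xist, the RNA that coats the inactive X chromosome of female cells, had 7.82 and 17.0 against 1.39 and 8.59 CPM. The part of fibroblasts, leukocytes or endothelium in the values of Mfap4, Emilin1 and Eln was not tested.

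**Figure D5:**
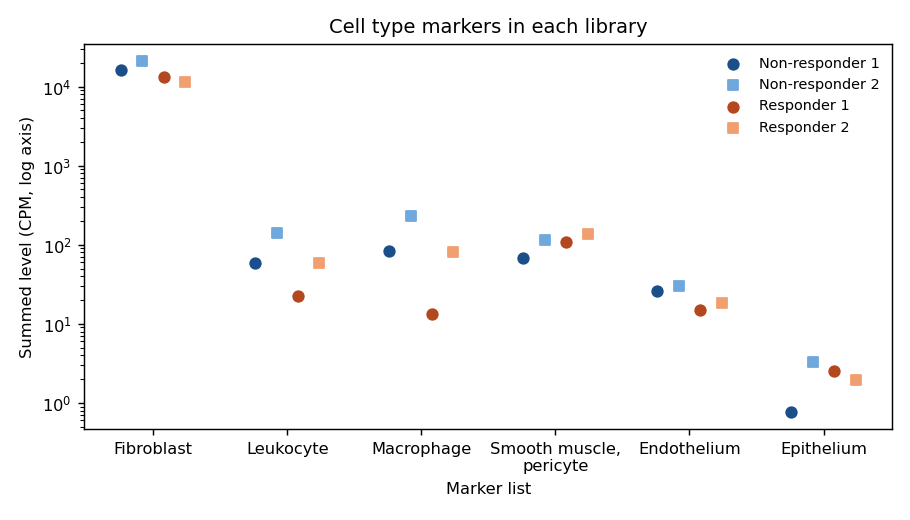
Summed CPM of 6 lists of cell type markers (log axis), with 1 point per library. Fibroblast markers lie between 11313 and 20777 CPM with both responder libraries lowest, and Col3a1 is the largest part of that sum in every library. Leukocyte and macrophage markers are lowest in responder replicate 1, and epithelial markers stay under 3.28 CPM.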

How the data were processed

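Bulk RNA-seq of sorted tumor cells was available as 4 count tables, 2 libraries per group, with group and replicate number from the sample titles. The deposited unit is the raw count of reads per gene, per the file headers, made by the authors with featureCounts 1.6.1 in reverse-stranded mode (setting 2) on Ensembl release 91. STAR and the mm10 (GRCm38) build are named in the submitters' processing notes, and the version of STAR is not given in the sources used here. Multi-mapping reads were not asked for, so genes with near-identical copies can be undercounted.

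Symbols were matched by Ensembl identifier (53274 of 53379). Genes were kept by filterByExpr (minimum count 10), scaled by TMM and fitted with edgeR 4.0.16 in R 4.3.3 (robust quasi-likelihood test, group as the only term, Benjamini-Hochberg threshold 0.05). The standard error is the size of the log2 fold change over the square root of F. The script was tested on simulated data. Levels per kilobase use the deposited exon length, which joins all annotated exons of a gene and so understates genes with long alternative exons. DESeq2 1.42.0 and limma-voom (limma 3.58.1), other scalings and filters, the replicate number as a block and each library left out were the alternatives. A library left alone in its group by such a fit takes its spread from the other group.

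The members and lists were chosen with earlier results of these data known. From each related list the text names the gene of highest level per length and that of smallest p, from each marker list the 2 of highest CPM, and 5 genes most like Emilin1 and Mfap4. Mapk7, Loxl1, Loxl2, Loxl4, Furin, Itga4, Itga9, Thy1 and the Ltbp genes were named after their values were seen. So were Epcam, Krt8, Myh11, Tagln, Cnn1, Pdpn and Twist2.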

Additional observations from a re-analysis of the deposited data

How the results depend on the processing

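The number of genes past an adjusted p of 0.05, 0 in the main fit, was 64 with DESeq2, 212 with no low-count filter and 32 with the replicate block, and 41 to 516 with single libraries left out. It was 0 with RLE or upper-quartile factors, library size alone, limma-voom and a filter of 5 CPM in 2 libraries. The cause was not tested. The labels do not say that a replicate number joins libraries across groups. The deviations of same-numbered libraries correlated at 0.39 across genes, and with the replicate block the members' median was -0.55, with all 7 under 0. The median log2 fold change of the members ran from -1.12 to 0.16 and the number under 0 from 3 to 7 with single libraries left out. Under the other scalings, tests and filters the median stayed between -0.70 and -0.55. Mfap4 and Emilin1 stayed under 0 in all 12 alternatives, and Eln in the 11 that kept it. The groups did not overlap for these genes, so rescaling or leaving out a library could hardly turn their signs. The shared sign therefore restates the lack of overlap and adds no separate evidence. Related genes under 0 numbered 30 to 44, as the settings kept different numbers of genes. They were 30 of 44 with the filter of 5 CPM, and 44 of 69 with DESeq2 and with no low-count filter. In these 3 settings 50.8%, 48.8% and 47.9% of all genes were under 0. With the length of the longest protein-coding transcript in GENCODE M21, added after seeing the data, the ranks per length were the same and 6 neighbouring pairs kept their order in all libraries. Precision is limited by 2 libraries per group and, for Mfap2, Fbn2, Efemp1, Mfap5 and Eln, by read number.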
